A study of Gallus gallus with 6 samples.

Results

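*INHA* encodes the α subunit of inhibin, and gene10079 is the next gene on the same sequence, on the opposite strand. Both were taken from the deposited table by their gene numbers (gene10078 for *INHA*), so that they are 2 of the 17992 genes of the table. They were selected on their FPKM and normalized counts in these same libraries, as genes higher in the follicles T4, T5 and T6. FPKM is the number of fragments scaled by the length of the gene and the size of the library. The levels of both genes are therefore given as a description, with no test. The samples are 6 small yellow follicles of 6 to 8 mm from 3 wild type Jining Bairi hens (*Gallus gallus*) aged 30 weeks, with 1 RNA-seq library per follicle. T1 and T4 come from hen 1, T2 and T5 from hen 2, and T3 and T6 from hen 3. The submitters' labels give the higher level of the FSH receptor gene *FSHR* to T1, T2 and T3. The paper's qRT-PCR gives it clearly to T4 in hen 1. It sets the follicles of hens 2 and 3 closer together, with T5 and T6 slightly above T2 and T3. In the libraries *FSHR* was higher in T4, T5 and T6, against the labels, as the RNA-seq ratios in the paper also show. Every ratio below divides the second follicle of a hen (T4, T5 or T6) by the first (T1, T2 or T3).

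Inhibin is a dimer of the α subunit with a β subunit, and it restrains the secretion of FSH by the pituitary. The β subunits without the α subunit form activins, which signal through serine/threonine kinase receptors to SMAD2 and SMAD3, and which follistatin binds. In the hen, granulosa cells are the main source of the α subunit, and in mammals FSH raises *INHA* transcription through cAMP. A whole follicle is a mixture of granulosa cells, theca, vessels and the oocyte, so that more granulosa cells and more *INHA* RNA per granulosa cell cannot be told apart here.

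*INHA* lies on chromosome 7, from 21555004 to 21556682 on the minus strand, with a gene model of 990 bases. Gene10079 lies from 21556981 to 21571299 on the plus strand, with a model of 9129 bases. The genes point away from each other, and 298 bases separate their 5′ ends. The paper's annotation describes gene10079 as obscurin, a giant protein of muscle myofibrils, by its closest protein, and as a myosin-binding protein by another database. In the reference table of chicken genes for a later assembly, the gene beside *INHA* is *OBSL1*, which encodes obscurin-like 1, a cytoskeletal adaptor. *TMEM198* follows *OBSL1* there, and gene10080, which follows gene10079, is described as similar to the TMEM198 family. By this order of genes, gene10079 stands in the place of *OBSL1*. The positions are those of the deposited table. The sources used here conflict on the genome build, so both tables were not joined by position, and gene10079 keeps its number.

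The summed normalized counts ran from 12318600 in T2 to 14083800 in T6. T4 stood apart from the other follicles, with Spearman correlations over genes of 0.866 to 0.932 with them, against 0.943 to 0.977 among the others. Values without hen 1, and so without T4, are given where a result rests on it. Granulosa markers were present in all follicles, with *ZP3*, an egg envelope protein made by avian granulosa cells, at 1948 FPKM or more.

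*INHA* measured 47.0 (T1), 54.4 (T2) and 10.1 FPKM (T3). In the other follicle of each hen it measured 1491 (T4), 296 (T5) and 794 FPKM (T6). The groups did not overlap: the lowest of T4, T5 and T6 was 5.45 times the highest of the other follicles, and the whole range was 148-fold. By FPKM it ranked from 2228 to 7503 among the genes of T1, T2 and T3. It ranked 53 in T4, 387 in T5 and 188 in T6, so that it was among the abundant mRNAs there. From the highest to the lowest, the order was T4, T6, T5, T2, T1 and T3. T2 and T1 had normalized counts of 650 and 557, with counting intervals (95%, exact Poisson) of 601 to 701 and 514 to 604. Their intervals overlap at the ends, which is not a test of the difference between T2 and T1. These intervals cover counting error only. There is 1 library per follicle and no replicate of it.

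**Figure D1:**
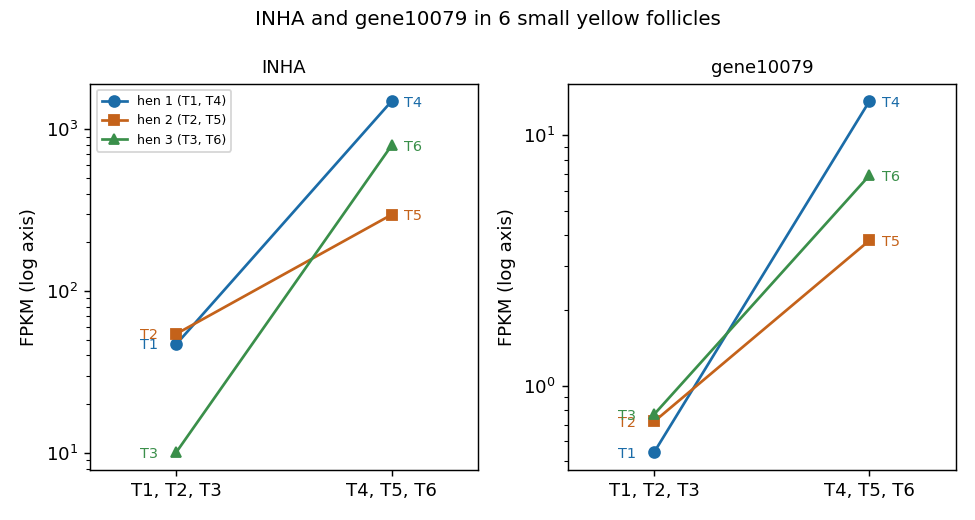
FPKM of *INHA* (left) and gene10079 (right) on log axes, with T1, T2 and T3 on the left of each panel and T4, T5 and T6 on the right. Each point is 1 follicle and each line joins the 2 follicles of a hen. *INHA* ran from 10.1 FPKM in T3 to 1491 FPKM in T4, and gene10079 from 0.543 FPKM in T1 to 13.7 FPKM in T4.

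In FPKM, *INHA* was 31.7-fold higher in T4 than in T1, 5.45-fold higher in T5 than in T2, and 78.6-fold higher in T6 than in T3. The normalized counts, which are not divided by gene length, gave 31.8-fold, 5.42-fold and 77.2-fold. The size of the ratio in hen 3 came with the low level in T3, where T2 had 5.38 times as much. On the log2 scale, with 0.5 FPKM added, the ratios were 4.97, 2.44 and 6.23, with a mean of 4.55 (SD 1.93, n = 3 hens). The mean was 4.33 without hen 1, 5.60 without hen 2 and 3.70 without hen 3, so that hens 2 and 3 each moved it by more than 1.5 times. Counted from the highest, the ratio took place 7 among 12688 genes for T4 over T1, place 24 among 12585 for T5 over T2 and place 2 among 12706 for T6 over T3. As background, the share of genes with a fold of 2 or more upwards was 5.38% for T4, 1.46% for T5 and 2.61% for T6, counted over genes that reach 1 FPKM in either follicle of the pair. At least 2-fold higher in all 3 pairs were 0.275% of 12381 genes. Nothing is read from these shares for *INHA* and gene10079, since both were chosen for being high.

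Gene10079 was a gene of low level that was also higher in T4, T5 and T6. It measured 0.543 (T1), 0.720 (T2) and 0.769 FPKM (T3), and then 13.7 (T4), 3.80 (T5) and 6.92 FPKM (T6). Again the groups did not overlap, and T4, T6 and T5 followed each other in the same order as for *INHA*. In T1, T2 and T3 its normalized counts were 68.1, 92.2 and 90.7. The counting intervals, 53.3 to 85.5, 74.5 to 113 and 73.2 to 111, overlap, and the differences between these follicles were not tested. The fold in FPKM was 25.2 in hen 1, 5.28 in hen 2 and 9.0 in hen 3, and that in normalized counts was 23.9, 5.10 and 9.27. On the log2 scale the hens gave 3.77, 1.82 and 2.55, averaging 2.71 (SD 0.98, n = 3 hens), and 2.18 without hen 1, 3.16 without hen 2 and 2.79 without hen 3. The 0.5 FPKM added weighs more on gene10079 than on *INHA*, because its level in T1, T2 and T3 was about that size.

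The pair did not keep a fixed proportion. Per length, the FPKM of *INHA* was 86.5 times that of gene10079 in T1, 75.5 times in T2, 109 times in T4, 77.9 times in T5 and 115 times in T6. In T3 it was 13.1 times. T3 was thus the follicle where *INHA* was lowest while gene10079 was not. In hens 1 and 2 the log2 ratio of *INHA* exceeded that of gene10079 by 1.21 and 0.62, and in hen 3 by 3.68. The 2 gene models share no base, so that no fragment lies wholly within both. The deposited values do not show whether fragments from beyond an annotated end were counted for a gene.

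The 10 nearest genes on each side of *INHA*, gene10079 left out, span 722 kb. They were used as background to compare the rise of *INHA* with that of its surroundings. Of these 20 genes, 15 reached 1 FPKM in 3 or more follicles and entered the test over all genes. The other 5 did not reach that level and were not tested. The genes next to *INHA* and gene10079 were higher in T4, T5 and T6, by less than either of them. Nothing is read from the smaller size, since *INHA* and gene10079 were chosen for being high. Beyond gene10077 and gene10080 no tested neighbour had a log2 ratio above 0.73.

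**Figure D2:**
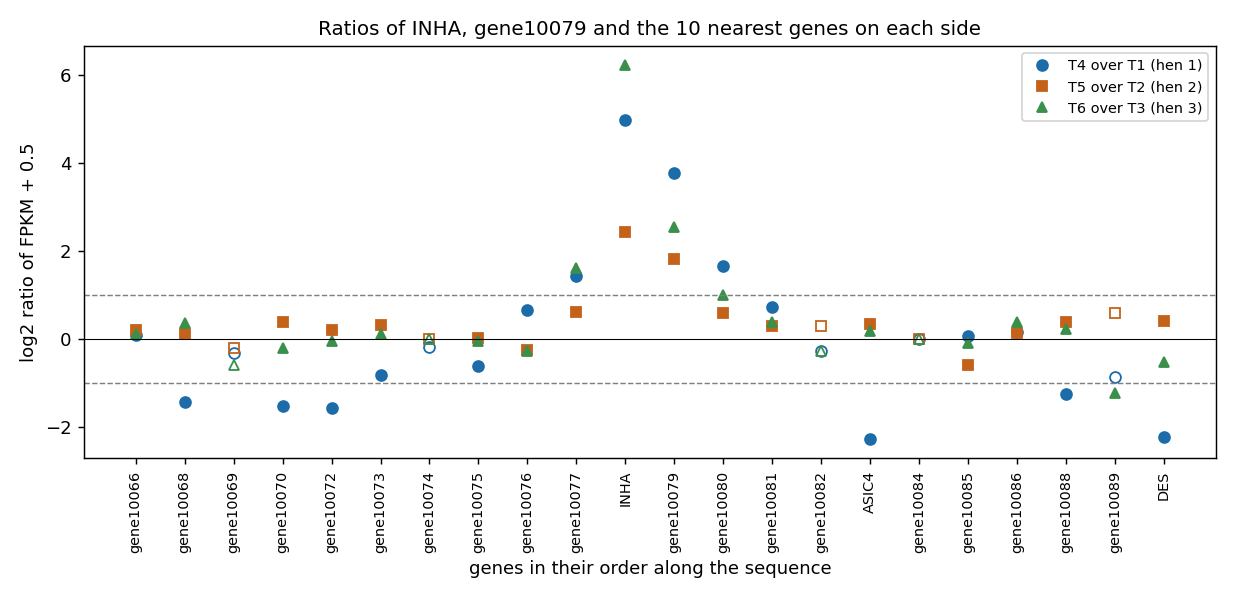
Log2 ratio of FPKM + 0.5 in the 3 pairs (circles T4 over T1, squares T5 over T2, triangles T6 over T3) for *INHA*, gene10079 and the 10 nearest genes on each side, in their order along chromosome 7. Open symbols are genes under 1 FPKM in both follicles of a pair, and dashed lines mark a fold of 2. *INHA* reached 6.23, gene10079 3.77, gene10077 1.61 and gene10080 1.65, and ASIC4 and DES lay under -2 in T4 over T1 only.

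Gene10077, the nearest gene on the far side of *INHA* from gene10079, lies from 21551919 to 21552740 on the plus strand, 2263 bases from *INHA*. The paper's annotation describes it as similar to gap junction gamma-1 protein, a connexin. It measured 9.08 (T1), 7.76 (T2) and 9.82 FPKM (T3), and then 25.3 (T4), 12.2 (T5) and 31.1 FPKM (T6). Its groups did not overlap, and the 3 log2 ratios of 1.43, 0.62 and 1.61 averaged 1.22 (limma standard error 0.25). T6 was its highest follicle, whereas *INHA* and gene10079 were highest in T4.

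Gene10080 lies from 21569881 to 21573553 on the minus strand, and its 3′ part overlaps that of gene10079 by 1419 bases. It is described as similar to a transmembrane protein of the TMEM198 family. It measured 10.1 (T1), 8.98 (T2) and 13.3 FPKM (T3), and then 32.9 (T4), 13.8 (T5) and 27.2 FPKM (T6). T5 was only just above T3. Log2 ratios of 1.65, 0.60 and 1.0 averaged 1.08 (limma standard error 0.25). The use of strand in counting is not given in the sources that were read, so that fragments of the shared stretch cannot be told apart between gene10079 and gene10080. In normalized counts gene10080 was at 334 in T1 and 1043 in T4, while gene10079 was at 68.1 and 1628.

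Gene10081, the next gene after gene10080 (21577006 to 21580578, plus strand), has no name here. It measured 42.3 (T1), 41.9 (T2) and 49.5 FPKM (T3), and then 70.3 (T4), 51.1 (T5) and 64.9 FPKM (T6). Its log2 ratios were 0.73, 0.28 and 0.39, under a fold of 2 in every pair, averaging 0.47 (limma standard error 0.17). On the other side, beyond gene10077, gene10076 was between 3.80 and 6.70 FPKM, with log2 ratios of 0.65, -0.25 and -0.27. The log2 ratios of gene10075, the next one out, were -0.62, 0.02 and -0.05. Gene10077 and gene10080 adjoin *INHA* and gene10079, which were chosen for this pattern, and gene10081 follows gene10080. All 5 lie within 28.7 kb. Across all genes tested, 5.94% had T4, T5 and T6 all above T1, T2 and T3. Of the 15 neighbours tested, 3 did, and these were gene10077, gene10080 and gene10081. Gene10080 overlaps gene10079 by 1419 bases, so it is not independent of gene10079 in this count or in the later counts of neighbours. Farther out, beyond the 10 nearest genes on each side, gene10065 and gene10096 also had groups that did not overlap.

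**Figure D3:**
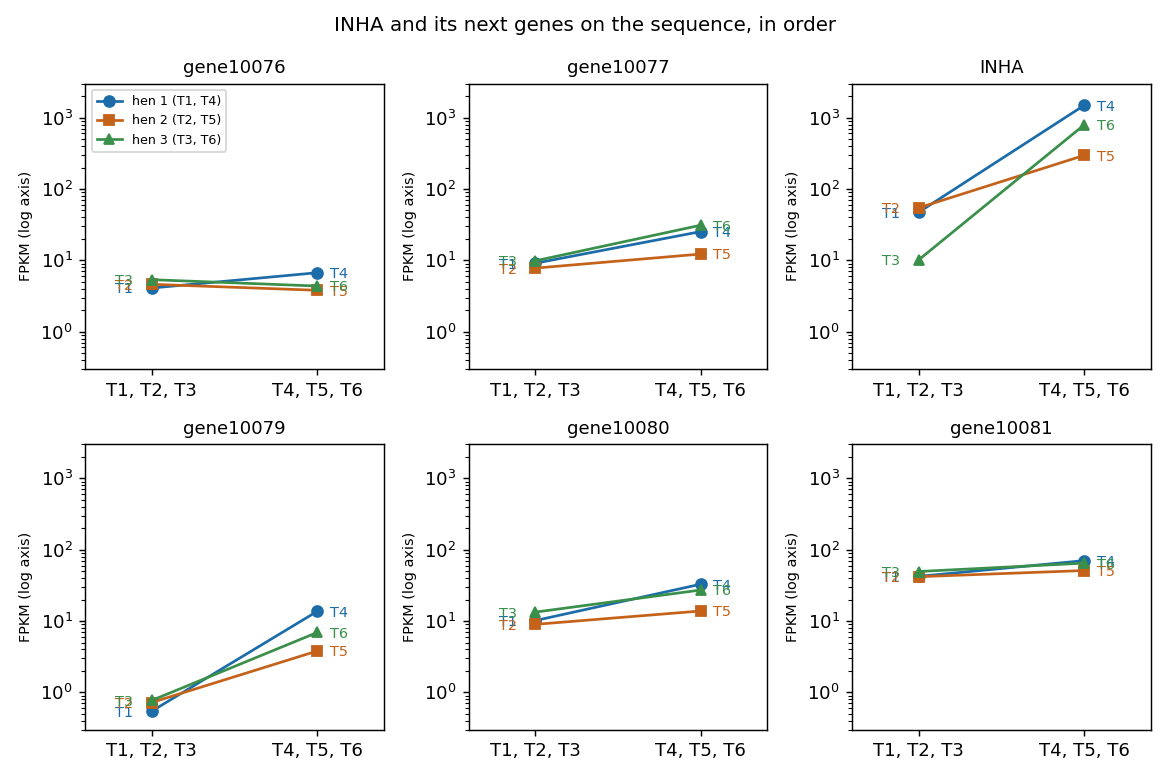
FPKM on the same log axis for gene10076, gene10077, *INHA*, gene10079, gene10080 and gene10081, in their order on the sequence. Each point is 1 follicle and each line joins the 2 follicles of a hen. The lines of *INHA* and gene10079 are the steepest, those of gene10077 and gene10080 rise less, gene10081 lies between 41.9 and 70.3 FPKM, and gene10076 between 3.80 and 6.70 FPKM.

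None of the 15 neighbours passed limma at an adjusted p of 0.05 (0% of 12381 genes did), and 3 had an unadjusted p under 0.05, all of them higher. Over all genes, 3.57% were higher with such a p. The adjusted p from limma was 0.774 for gene10077, gene10080 and gene10081 alike, with unadjusted p of 0.0031, 0.0053 and 0.034. Without hen 1 the means of gene10077 and gene10080 were 1.12 and 0.80, and their adjusted p from limma was 2.4e-05 and 0.0069, in a fit that called 3.76% of genes. With eBayes without trend and robust, a setting chosen after seeing the data, the adjusted p from limma without hen 1 was 0.176 and 0.238. Both calls were lost under that setting. Over all alternatives the adjusted p of gene10077 ranged from 2.4e-05 to 0.999, that of gene10080 from 0.0069 to 0.999 and that of gene10081 from 0.568 to 0.999.

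By counts within pairs, a fold of 2 or more upwards was seen for 2 of 15 neighbours measured in T4 (background 5.38%), for 0 of 15 in T5 (1.46%) and for 2 of 16 in T6 (2.61%). In T4 and in T6 the genes were gene10077 and gene10080. At least 2-fold lower in T4 were 6 of 15 neighbours, where 13.3% of all genes were. They were gene10068, gene10070, gene10072, gene10088, *ASIC4*, which encodes an acid-sensing ion channel, and *DES*, the intermediate filament of muscle. *DES*, which is also on the list of stroma and muscle markers, went from 259 FPKM (T1) to 54.8 FPKM (T4). In T5 no neighbour was 2-fold lower (background 3.31%), and in T6 there was 1 (background 4.41%), gene10089, which was at 1.10 FPKM or less in every follicle. The median log2 ratio of the neighbours was -0.62 in hen 1, 0.28 in hen 2 and 0.11 in hen 3, against 0.01, -0.02 and 0.01 over all genes. These medians are not set against the ratio of *INHA*, since *INHA* was chosen for being high. They also pool all measured neighbours, among which gene10077, gene10080 and gene10081 were higher in T4, T5 and T6.

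On the log2 scale the ratio of *INHA* was larger in each hen than that of the 5 other granulosa markers that could be matched. Nothing is read from this order, since *INHA* was chosen for being high. *FSHR* measured 11.9 (T1), 13.1 (T2) and 13.9 FPKM (T3), and then 46.4 (T4), 18.9 (T5) and 27.8 FPKM (T6). Its log2 ratios of 1.92, 0.51 and 0.98 averaged 1.14 (limma standard error 0.30, adjusted p = 0.774, 3 hens). The paper compared follicles that differ in *FSHR* mRNA, so nothing is read from the p-values of *FSHR*. With hen 1 left out the mean was 0.74, with an adjusted p from limma of 0.0133, or of 0.285 with eBayes without trend and robust. *INHA* exceeded *FSHR* by 3.05, 1.93 and 5.25 on the log2 scale. In FPKM *INHA* was 3.97, 4.14 and 0.727 times *FSHR* in T1, T2 and T3, and 32.1, 15.7 and 28.5 times in T4, T5 and T6. Beside *ZP3*, with log2 ratios of 2.49, 1.03 and 1.07, the excess of *INHA* was 2.48, 1.4 and 5.16. *FABP5*, a fatty acid binding protein, had log2 ratios of 2.08, 2.26 and 1.52. In plain FPKM its fold in hen 2, from 1.21 FPKM (T2) to 7.69 FPKM (T5), was larger than that of *INHA*. The groups of *FABP5* overlapped, with 15.8 FPKM in T3. Of the remaining granulosa markers, *NR5A1* had log2 ratios of 1.55, 0.11 and 1.29. *GATA4* had 1.35, -0.04 and -0.07, and so did not rise in hens 2 and 3. Without *INHA*, the 5 granulosa markers matched of 8 on the list summed to 2133 to 2679 FPKM in T1, T2 and T3, and to 11484, 5354 and 4503 FPKM in T4, T5 and T6. *ZP3* makes up most of these sums.

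Markers of other cells were matched through the paper's annotation of genes that differ between T4 and T1, so that their 2-fold difference in hen 1 is set by that choice. The same holds for the granulosa markers. The 7 theca, stroma and muscle markers matched of 13 summed to 5475 FPKM (T1) and 1044 FPKM (T4), and all 7 were at least 2-fold lower in T4. In T2 and T5 they summed to 4039 and 4252 FPKM, and in T3 and T6 to 7059 and 6114 FPKM. On the scale with 0.5 FPKM added, none was 2-fold apart in hen 2, where *POSTN*, a matrix protein, came nearest, from 8.68 FPKM (T2) to 17.4 FPKM (T5). In hen 3 *POSTN* was 2-fold lower. Both endothelial markers matched of 6, *CDH5* and *APLNR*, and *MPEG1*, the macrophage marker matched of 4, were also at least 2-fold lower in T4. *MPEG1* was so in T6 as well, as its log2 ratios of -2.25, -0.83 and -1.22 show. In hens 2 and 3 no more than 1 of the 7 stroma markers differed 2-fold on the scale with 0.5 FPKM added. Of the 5 granulosa markers without *INHA*, 2 were at least 2-fold higher in T5 and 3 in T6. Over all genes the shares were 1.46% and 2.61%. The markers were matched through a difference in hen 1 and all genes were not, so nothing is read from these counts beside the shares. The part of the mixture of cells in the rise of *INHA* was not tested.

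Among the matched genes of activin, inhibin and BMP signaling, *SMAD2* came nearest to *INHA* in the ratios. SMAD2 carries the signal of activin and TGF-β to the nucleus. Its log2 ratios were 2.87, 1.25 and 1.98, averaging 2.03 (limma standard error 0.32, adjusted p = 0.774, 3 hens), and *INHA* exceeded it by 2.11, 1.18 and 4.25. *FST*, the follistatin that binds activin, measured 108 (T1), 125 (T2) and 230 FPKM (T3), and then 243 (T4), 124 (T5) and 108 FPKM (T6). Its groups overlapped, and its log2 ratios were 1.17, -0.02 and -1.09. The BMP target *ID2* had log2 ratios of 1.60, 0.82 and 0.72. The receptors *BMPR1B* and *BMPR2* had log2 ratios of 1.28 and 1.73 in hen 1 and of 0.57 or less in hens 2 and 3. *BAMBI*, a decoy receptor, had log2 ratios of 2.0, -0.09 and 0.93, and the BMP antagonists *NOG* and *CHRD* had ratios of 1.76 and -2.44 in hen 1 and of 0.30 and -0.44 in hen 3. *ACVRL1*, a receptor of vessels for BMP9, had log2 ratios of -2.10, 0.26 and 0.14. *SMAD6*, an inhibitory SMAD, measured 6.36 FPKM in T1 and was listed at 0 in T4. In hen 2 it measured 5.29 (T2) and 4.36 FPKM (T5), and in hen 3 it measured 4.88 (T3) and 8.24 FPKM (T6).

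Of the 45 genes of this list, 11 could be matched, *INHA* among them. With a fold of 2 as the limit, 7 of the other 10 were higher and 3 lower in T4, 1 was higher and 0 lower in T5, and 1 was higher and 1 lower in T6. Over all genes, 5.38% were higher and 13.3% lower in T4. The shares were 1.46% and 3.31% in T5, and 2.61% and 4.41% in T6. The median log2 ratios of the 10 genes were 1.44, 0.14 and 0.43, and over all genes tested the medians were 0.0032, -0.017 and 0.021. Names came from the paper's annotation of genes that differ between T4 and T1. That all 10 differ 2-fold in hen 1 is therefore set by that choice, though not the direction. In limma over all genes none of the 10 was called, and 2 (*SMAD2* and *ID2*) had an unadjusted p under 0.05. Of all genes tested, 5.72% had such a p in either direction. That fit includes hen 1, so the choice of genes also bears on these p-values. The genes of the β subunits of inhibin were not analysed here.

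**Figure D4:**
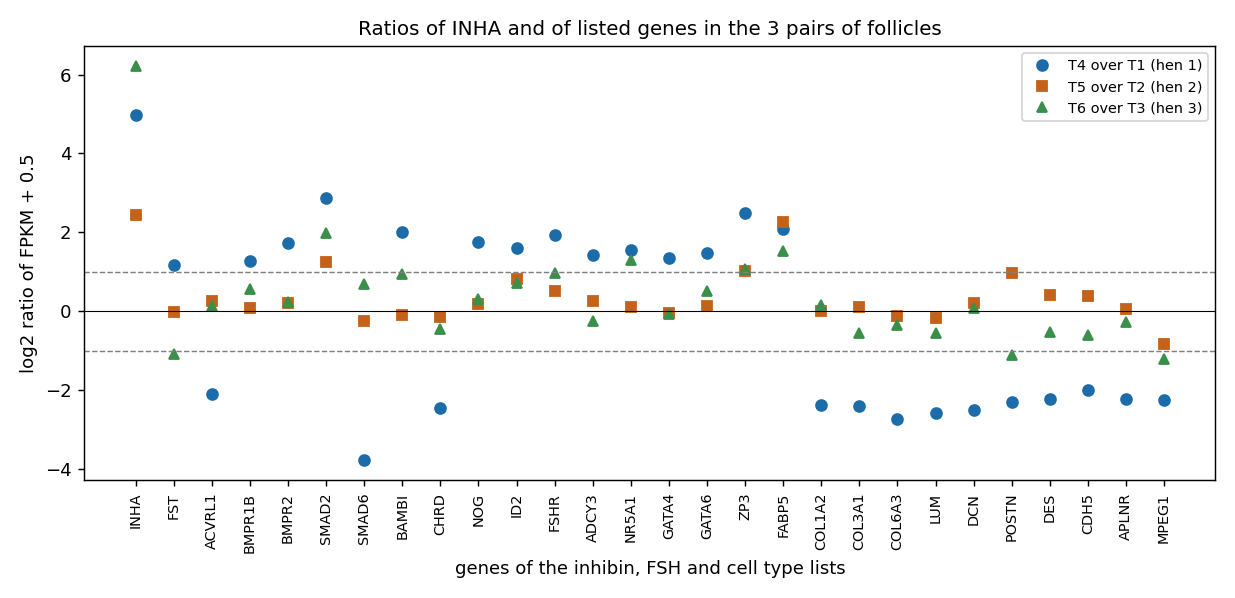
Log2 ratio of FPKM + 0.5 in the 3 pairs for *INHA* and for the listed genes of inhibin and BMP signaling, FSH signaling and cell types. Dashed lines mark a fold of 2. *INHA* stands at 4.97, 2.44 and 6.23, *SMAD2* at 2.87, 1.25 and 1.98, and the stroma markers lie between -2.73 and -2.23 in T4 over T1.

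Genes of FSH signaling and factors that act on the *INHA* promoter of mammals were matched through the same annotation. Their 2-fold difference in hen 1 is again set by that choice, though not its direction. *NR5A1*, or SF-1, a nuclear receptor of steroidogenic cells, measured 90.5 (T1), 61.0 (T2) and 57.7 FPKM (T3), and then 266 (T4), 65.7 (T5) and 142 FPKM (T6). Its log2 ratios were 1.55, 0.11 and 1.29, averaging 0.98 (limma standard error 0.31, adjusted p = 0.774, 3 hens). *GATA4* had log2 ratios of 1.35, -0.04 and -0.07, and *GATA6* of 1.47, 0.14 and 0.51. *ADCY3*, an adenylate cyclase, had log2 ratios of 1.44, 0.26 and -0.25. Of the 13 genes of the list, 6 were matched, and of the 5 without *INHA* a fold of 2 or more upwards was seen for 5 in T4, for 0 in T5 and for 1 in T6. Over all genes the shares at that fold were 5.38% in T4, 1.46% in T5 and 2.61% in T6. None passed limma over all genes, and 3 (*FSHR*, *NR5A1* and *GATA6*) had an unadjusted p under 0.05. Of all genes tested, 5.72% had such a p in either direction. Hen 1 is part of that fit, so the choice of genes also bears on these p-values. The paper set the follicles apart by *FSHR*, so the p of *FSHR* is not read as a test.

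Over the 6 follicles, Pearson's r of log2(FPKM + 0.5) was used as the measure of likeness. It is a description of 6 single libraries, of which 2 come from each hen. Nothing is read from the size of an r with *INHA* or gene10079, since both were chosen for being high in T4, T5 and T6. Gene10079 had an r of 0.937 with *INHA* and ranked 117 of 12380 genes, *FSHR* had 0.886 and ranked 334, gene10077 had 0.848, gene10080 0.808, gene10081 0.804 and gene10076 0.200. The 10 genes most like *INHA* had an r of 0.977 to 0.992 and no name here, and the first of them, gene2514, lay between 15.5 and 23.7 FPKM. Its range was thus far smaller than that of *INHA*, since r does not measure the size of a difference. Among the 1641 genes with a range of at least 4-fold, a limit chosen after seeing the data, the 10 most like *INHA* had an r of 0.950 to 0.977, and all of them but gene20998 have a name. They were *UXS1*, which makes UDP-xylose, *GAL3ST2* and *CHST8*, which are sulfotransferases that act on glycans, *DOK4*, *SKP2*, a subunit of a ubiquitin ligase, the egg envelope protein *ZPD*, *TMEM72*, the small GTPase *RALB*, and *YWHAH*, a 14-3-3 protein. Of these, *TMEM72* had log2 ratios of 5.94, 2.19 and 6.51, beside 4.97, 2.44 and 6.23 for *INHA*. *TMEM72* measured 1.23 (T1), 0.748 (T2) and 0.239 FPKM (T3), and then 106 (T4), 5.18 (T5) and 66.7 FPKM (T6). At such low levels the 0.5 FPKM added lowers its ratios more than those of *INHA*. In plain FPKM its fold in hen 2 was larger than that of *INHA*. *GAL3ST2* and *CHST8* were likewise low, at 1.19 FPKM or less in T1, T2 and T3.

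Gene10079 was most like *CHST8*, with an r of 0.998. *CHST8* measured 0.583 (T1), 0.740 (T2) and 0.632 FPKM (T3), and then 5.42 (T4), 2.01 (T5) and 3.43 FPKM (T6). Both genes were under 1 FPKM in T1, T2 and T3, so they passed the filter only through T4, T5 and T6. The 0.5 FPKM added is near their levels in T1, T2 and T3, and no other value was tried for r. The next in order were gene14977, *STON2*, gene2502 and *TRPM7*, with an r of 0.989 to 0.994. *STON2* encodes an adaptor of endocytosis and *TRPM7* an ion channel with a kinase domain. *FSHR* had an r of 0.975 with gene10079 and ranked 26 of 12380 genes, and *INHA* ranked 127. The r of gene10079 was thus higher with *FSHR* than with *INHA*, whose low value in T3 neither of them shared. The difference between these values of r was not tested.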

How the data were processed

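Poly(A) RNA of 6 single follicles was sequenced, with 1 library each. The authors deposited 1 table with FPKM (fragments scaled by gene length and library size) and a normalized count per gene and follicle. The deposited normalized count was treated as a signal: estimated fragments divided by 1 factor per library, not whole, so that no count model was used. The submitters' notes name Bowtie 0.12.2, Cufflinks and the mouse build mm8, and the paper names a chicken assembly. The table had 17993 lines below its header, of which 1 repeated the column names. A column of values with no follicle in its name (1 in all) was not used. Chromosome 7 was assigned because all 21 genes of the sequence with a chicken gene number lie there in the reference table (RefSeq, GRCg7b).

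The members, lists and tests were chosen with earlier results of these data known. Ratios are log2 of FPKM with 0.5 added. Across hens, limma 3.58.1 in R 4.3.3 (hen as block, eBayes with trend and robust) was fitted to the 12381 genes that reached 1 FPKM in 3 or more follicles, and p-values were adjusted by Benjamini-Hochberg. Each hen gave 2 follicles by the paper, and the 2 follicles of a hen deviated together from their group means (r of 0.43, 0.18 and 0.53). Between follicles of different hens r ran from -0.456 (T4 with T3) to 0.182 (T4 with T2). The r of hen 2, 0.181, was thus not above that of every pair from different hens. The p-values rest on the spread between these hens, which eBayes moderates by that of other genes. With so few hens they are not a measure of the spread of a single gene alone. Names rest on the paper's annotation of genes that differ between T4 and T1: 46 names, of which 30 have a chicken gene number and 16 rest on a description or another species. The genes named are *INHA*, gene10079, *FSHR*, the 10 nearest genes on each side, matched list members, and the genes most like *INHA* (10) and gene10079 (5). The fragment behind a normalized count was taken as the most frequent value under 1.5 in each library. The fit was also run on simulated data with independent noise, in which no follicle stood apart as T4 does. Nothing is read from that run. Other steps used Python 3.11.15 with pandas 2.3.3, numpy 2.4.6 and, for intervals, scipy 1.17.1. Figures used matplotlib 3.10.9. Alternatives were pseudocounts of 0.1 and 1, scaling by the median of ratios, normalized counts in place of FPKM, no filter and a filter at 5 FPKM, no block, eBayes without trend and robust, each hen left out, 5 or 20 neighbours on each side, and folds of 1.5 and 4.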

Additional observations from a re-analysis of the deposited data

How the results depend on the processing

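The mean log2 ratio of *INHA* stayed between 3.70 and 5.60 and that of gene10079 between 2.18 and 3.37 under the 7 alternatives run for each. The number of genes called by limma was 0 in the main fit (708 with an unadjusted p under 0.05) and 0 to 466 with a hen left out. It was 466 without hen 1, and 21 when eBayes was also run without trend and robust, a setting chosen after seeing the data. Without the hen as a replicate block it was 0 (435 with an unadjusted p under 0.05), and the block changed no call for *FSHR*, gene10077, gene10080 or gene10081. The mean log2 ratio of *FSHR* ranged from 0.74 to 1.45 with a hen left out, and passed the limit without hen 1 (adjusted p = 0.0133, limma; 0.73 and 0.999 without hens 2 and 3). Without hen 1, gene10077 (mean 1.12) and gene10080 (mean 0.80) passed as well. That fit holds only hens 2 and 3. The paper set the follicles apart by *FSHR*, so nothing is read from the p-values of *FSHR*. Neighbours at least 2-fold higher in all 3 pairs numbered 0, and 0 to 2 with a hen left out (2 without hen 2). With a fold of 4 their number was 0 in T4 and 0 in T6. With a fold of 1.5 it was 4 in T4, 2 in T5 and 2 in all 3 pairs. For these counts no share over all genes was taken at folds of 1.5 and 4 or with a hen left out. Nothing is read from them. At a fold of 2, the number of neighbours in T6 was 1 with scaling by the median of ratios. It was also 1 in T6 with a pseudocount of 1, since gene10080 lay at the limit there. That scaling moved the median of all genes by under 0.1 in each pair. Depth limits gene10079 in T1, T2 and T3, where it rests on 73.2 to 94.1 estimated fragments.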
